A study of Mus musculus with 66 samples.

Results

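The clustered protocadherin genes encode cadherin-like adhesion molecules that neurons use to tell their own branches from those of other cells. They lie in 3 neighbouring clusters on mouse chromosome 18, named alpha, beta and gamma. In the alpha and gamma clusters each gene is a first exon with its own promoter that is spliced to constant exons shared by the whole cluster, whereas beta genes have a single coding exon. Most of the promoters bind CTCF, which with cohesin loops a promoter to a distant enhancer, and in neurons DNA methylation and promoter choice leave each cell with a small set of isoforms.

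All genes whose symbol marks them as a numbered or C-type member of a cluster were taken, 58 of the 55487 genes in the tables, without regard to their values. The alpha cluster had 14 genes, the beta cluster 22 and the gamma cluster 22. The gamma genes comprised 12 of type A, 7 of type B and 3 of type C, where C-type genes (Pcdhac1, Pcdhac2, Pcdhgc3, Pcdhgc4 and Pcdhgc5) sit last in their cluster and are, in mouse neurons, expressed more broadly than the others. The symbol Pcdha11 was carried by 2 gene identifiers. In the RefSeq table of GRCm38.p6 (mm10) alpha ran from 36930285 to 37188897, beta from 37264998 to 37521419 and gamma from 37661775 to 37841873, a span of 911.6 kb.

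RNA came from E14 mouse embryonic stem cells, untreated, grown with serum, LIF and inhibitors of GSK and MEK. The GDel1 and GDel2 groups, with 2 libraries each, share the genotype label of a Praf2 G4 deletion, where G4 stands for a G-quadruplex, a fold of guanine-rich nucleic acid. The wildtype group (WT) had 3 libraries. Whether GDel1 and GDel2 are different clones, and whether replicates come from different cultures, is not given by the labels, so p-values measure only the spread between these libraries. Cell identity was checked against markers: all 8 pluripotency genes listed were expressed in every group. Of 10 neural genes listed, Stmn2, Tubb3, Nes, Sox1 and Map2 were expressed in every library as well, and Dcx and Neurog2 had 0 counts in all 7 libraries.

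Praf2 had 10.1 and 9.26 CPM (counts scaled to library size by TMM) in GDel1 and 13.1 and 14.1 CPM in GDel2, against 27.5, 28.8 and 30.6 CPM in WT, so both deletion groups lay below WT. Depth was between 12316853 and 18762704 expected counts. The share of mitochondrially encoded transcripts was 9.91% and 4.83% in GDel1, 6.19% and 9.60% in GDel2 and 6.30% to 6.89% in WT. The Y-linked gene Uty had 0 counts in both GDel2 libraries, against 1440 and 2082 in GDel1 and 1472 to 1882 in WT. Replicates differed most in GDel1, where the chi-square over genes was 67.8 per degree of freedom, against 22.3 in GDel2 and 4.79 to 7.23 between pairs of WT. The part of these differences in the results below was not tested, and in bulk RNA fewer cells expressing a gene cannot be told apart from less RNA per cell.

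Nearly all counts fell on the gamma cluster. Over all 7 libraries the 58 genes held 12317.6 of 106741576 expected counts, of which 99.25% fell on gamma, 0.352% on alpha and 0.398% on beta. The 14 alpha genes together had 8 and 9 counts in the GDel1 libraries, 0 and 4.33 in the GDel2 libraries and 9, 5 and 8 in the WT libraries. The 22 beta genes together had 6 and 3 counts in GDel1, 7 and 14 in GDel2 and 4, 9 and 6 in WT. These sums lie at or below 1.01 CPM in every library, and none of the 36 alpha and beta genes passed the filter on low counts.

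Within alpha and beta no gene exceeded 5.98 counts in a library. The 5 alpha genes with the highest mean TPM (a level per transcript length, scaled to a fixed sum per library) were Pcdha4 at 0.01, Pcdha12 at 0.0086, Pcdha7 at 0.0071, and Pcdha8 and Pcdhac2 at 0.0043 TPM. Pcdha12 had 4.30 and 5.98 counts in GDel1, against 0 in every GDel2 and WT library. Pcdha1, the first alpha gene, had 1.89 counts and the C-type gene Pcdhac1 had 1.51 counts over all libraries. Among beta genes Pcdhb18 and Pcdhb22, the last of the cluster, both averaged 0.0143 TPM, followed by Pcdhb8 and Pcdhb16 at 0.0071 and Pcdhb7 and Pcdhb19 at 0.0043 TPM. TPM values of single libraries move in steps of 0.01, so the order within alpha and beta depends on rounding. Pcdhb14, with 5 counts over all libraries, averaged 0.0029 TPM, while Pcdhb7 had 2 counts. Listed at 0 in all 7 libraries were 11 genes: Pcdha2, Pcdha5, Pcdha6, Pcdhb1 (the first beta gene), Pcdhb3, Pcdhb5, Pcdhb9, Pcdhb10, Pcdhb12, Pcdhb13 and Pcdhb17. A count of 0 allows up to 3 counts, or 0.0281 CPM over the 7 libraries together, so a level below that was not detectable at this depth. This floor covers counting error only.

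**Figure D1:**
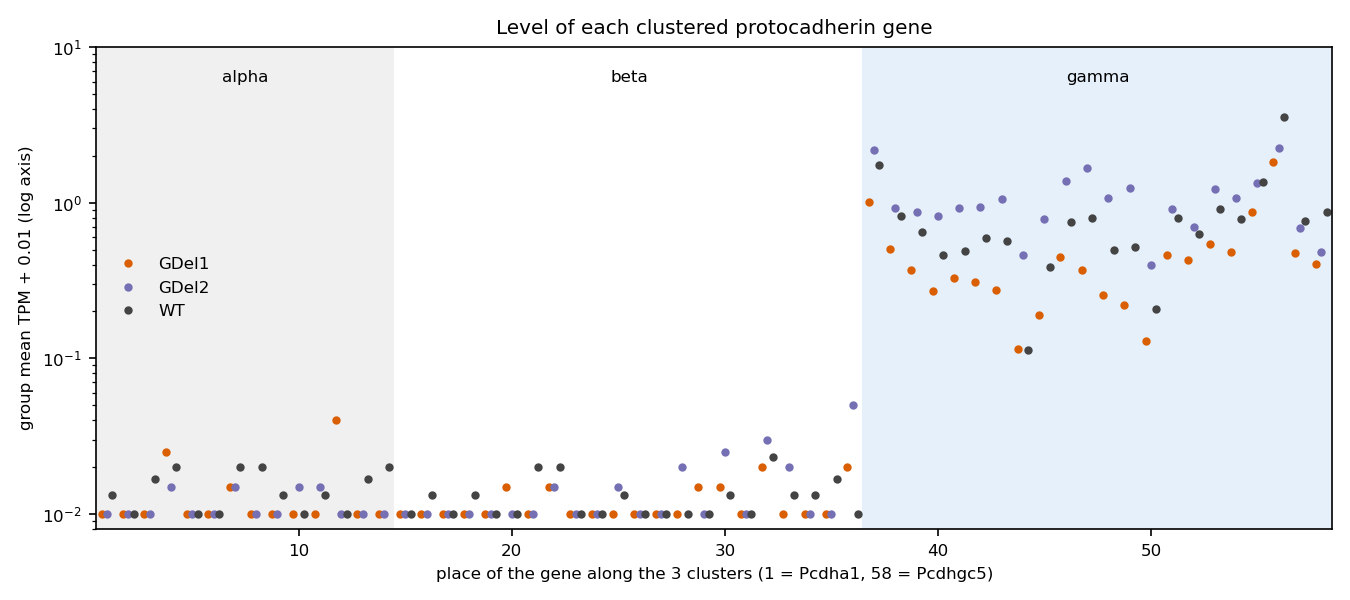
Mean TPM plus 0.01 (log axis) of the 58 clustered protocadherin genes in GDel1, GDel2 and WT, in their order along the chromosome from Pcdha1 to Pcdhgc5. Alpha and beta genes average at most 0.0143 TPM over the 7 libraries, whereas the 22 gamma genes lie between 0.103 and 3.55 TPM in WT.

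Gamma genes were present at low to middling levels. In WT their means ran from 0.103 TPM for Pcdhga6 to 3.55 TPM for Pcdhgc3, a 34.4-fold range, with a median of 0.693 TPM, and the median over all genes above 0 in WT was 0.853 TPM. Pcdhgc3 stood at percentile 64.4 and Pcdhga1 at percentile 57.0 of the genes above 0, while Pcdhga6 stood at percentile 27.9. The 5 gamma genes of highest mean level over the 7 libraries were Pcdhgc3 (2.68 TPM), Pcdhga1 (1.65 TPM), Pcdhga12 (1.20 TPM), Pcdhga8 (0.913 TPM) and Pcdhga11 (0.887 TPM). The first and last type A genes, Pcdhga1 and Pcdhga12, were thus among the highest.

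Levels within the cluster were closer together in GDel2. The highest gamma gene exceeded the lowest by 17.2-fold in GDel1 (1.81 and 0.105 TPM) and 5.72-fold in GDel2 (2.23 and 0.390 TPM), against 34.4-fold in WT. The median of the 22 genes was 0.378 TPM in GDel1 and 0.923 TPM in GDel2, against 0.693 TPM in WT. On the log2(TPM + 1) scale the median difference from WT over all tested genes was -0.30 in GDel1 and -0.05 in GDel2. The comparisons between groups below use CPM with TMM scaling.

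As a sum, the gamma cluster was lower in GDel1 and higher in GDel2 than in WT. Summed gamma CPM was 80.8 and 91.4 in GDel1 (mean 86.1 ± 7.45, SD, n = 2) and 154.7 and 142.6 in GDel2 (148.7 ± 8.57, SD, n = 2), against 116.2, 115.0 and 109.9 in WT (113.7 ± 3.32, SD, n = 3). By CPM the 3 groups did not overlap, with ratios to WT of 0.757 for GDel1 and 1.31 for GDel2. No test was made of these sums, and by TPM the GDel1 ratio was 0.557. Summed gamma TPM was 25.56 and 20.72 in GDel2, against 20.73, 16.99 and 16.37 in WT, so by TPM GDel2 and WT overlapped.

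The types did not move alike in GDel2. Type A genes summed to 44.1 ± 1.92 CPM in GDel1 and 87.6 ± 3.68 in GDel2 (SD, n = 2 each), against 57.6 ± 2.14 in WT (SD, n = 3), ratios of 0.766 and 1.52. Type B genes summed to 19.8 ± 0.0456 CPM in GDel1 and 40.7 ± 0.571 in GDel2 (SD, n = 2 each), against 23.7 ± 2.27 in WT (SD, n = 3), ratios of 0.834 and 1.71. Type C genes summed to 22.2 ± 5.57 CPM in GDel1 and 20.5 ± 4.32 in GDel2 (SD, n = 2 each), against 32.4 ± 0.445 in WT (SD, n = 3), ratios of 0.684 and 0.631. In GDel2 the A and B sums were thus above WT and the C sum below it, while in GDel1 all 3 sums were below WT.

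The share of gamma counts on the 3 type C genes was 22.6% and 28.6% in GDel1 and 15.2% and 12.2% in GDel2, against 28.3%, 28.1% and 29.2% in WT. Both GDel2 libraries lay below all others, while 1 GDel1 library lay below WT and 1 within the WT range. Shares do not depend on scaling between libraries.

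**Figure D2:**
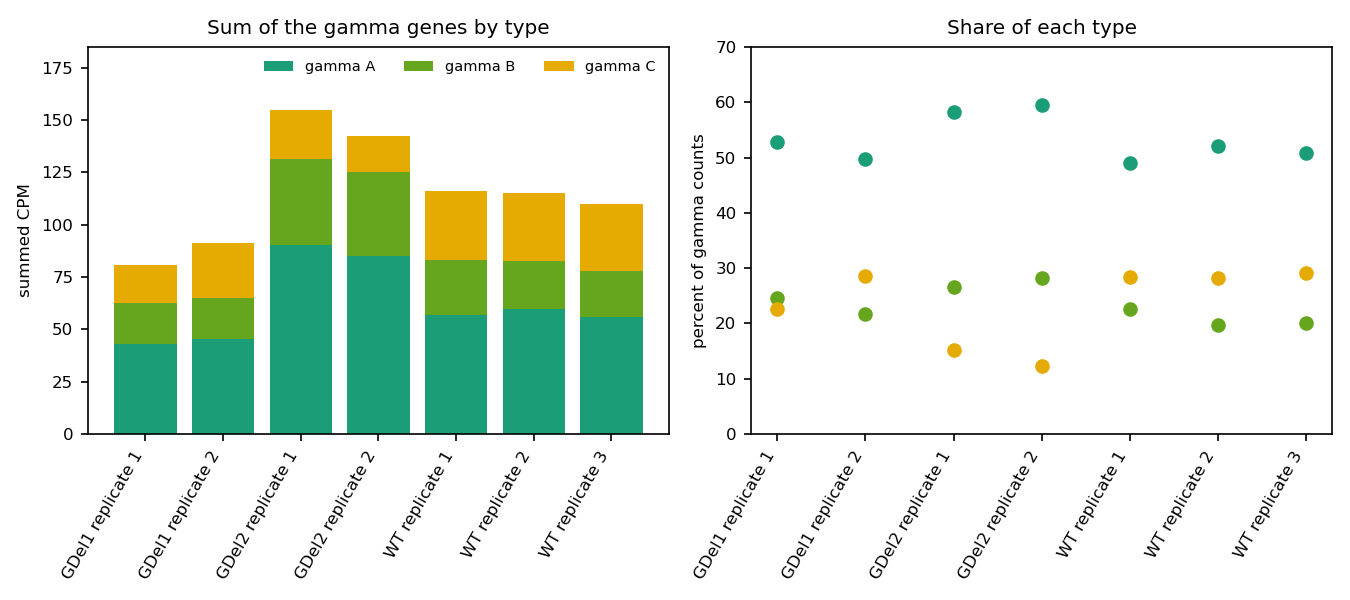
Left, summed CPM of type A, B and C gamma genes in each library, stacked; right, the percent of gamma counts on each type. In GDel2 the bars reach 154.7 and 142.6 CPM, against 109.9 to 116.2 CPM in WT, and the type C share is 15.2% and 12.2%, against 28.1% to 29.2% in WT.

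All 22 gamma genes passed the filter and were tested with edgeR's quasi-likelihood test, adjusted by Benjamini-Hochberg over 15421 genes, the threshold being an adjusted p under 0.05. In GDel2 against WT 10 gamma genes rose and 2 fell, 54.5% of those tested. Over all genes 33.1% were called in this comparison, 17.4% as higher and 15.6% as lower. The median log2 fold change was 0.67 over the 22 gamma genes and 0.01 over all genes. Of the 19 genes of type A and B all 19 had a positive log2 fold change, and all 3 of type C a negative one. The sign of Pcdhga12, near 0, was negative with library totals without TMM, without a filter and with limma on either TPM scale. DESeq2 called 7 members as higher and 1 as lower, and 26.1% of all genes. Counts of reads in shared exons are divided between members by the authors' counting, so single members are less certain than the sums.

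The 10 genes that rose stood next to each other, at places 4 to 13 of the 22, from Pcdhgb1 to Pcdhga9. Their fold changes ran from 1.72 to 4.42, with a median log2 value of 1.14, and the 2 GDel2 libraries lay above all 3 WT libraries for each of the 10. Libraries did not overlap, with GDel2 the higher, for 14 of the 22 genes and for 32.2% of all genes tested, and with GDel2 the lower for 2 of the 22 genes and for 31.0% of all genes tested. The 3 genes before this stretch, Pcdhga1, Pcdhga2 and Pcdhga3, had log2 fold changes of 0.16 to 0.51 (adjusted p from 0.0788 to 0.530). The 6 genes of type A and B after it had values of 0.02 to 1.00 (adjusted p from 0.0589 to 0.923). The edges of the stretch depend on the threshold: Pcdhga3 just before it had an adjusted p of 0.0788 and Pcdhgb6 just after it 0.0589.

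The largest change of a member was in Pcdhga6, the lowest gamma gene in WT. It had 3.55 and 3.18 CPM in GDel2, against 0.662, 0.742 and 0.840 CPM in WT, a log2 fold change of 2.14 ± 0.31 (SE; edgeR adjusted p = 0.00107). Both GDel2 libraries lay far above WT, and GDel1, at 0.644 and 1.30 CPM, lay on both sides of the WT values (log2 0.42, adjusted p = 0.492).

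Pcdhga8, at 1.66 TPM in GDel2 and 0.783 TPM in WT, had 12.3 and 12.6 CPM in GDel2, against 6.18, 5.81 and 4.41 CPM in WT. The log2 fold change was 1.19 ± 0.21 (SE; edgeR adjusted p = 0.00334), and no GDel2 library overlapped WT. Pcdhga9, the last gene of the stretch, had 6.87 and 5.28 CPM in GDel2, against 2.80, 2.04 and 2.78 CPM in WT (log2 1.25 ± 0.23, SE; edgeR adjusted p = 0.00346). The type B gene Pcdhgb5 had 7.34 and 7.88 CPM in GDel2, against 3.53, 3.53 and 2.78 CPM in WT (log2 1.22 ± 0.17, SE; edgeR adjusted p = 0.00108). These 3 genes and Pcdhga6 passed the threshold under all 15 alternative settings.

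Pcdhga4 had 4.42 and 5.71 CPM in GDel2, against 2.06, 2.66 and 1.68 CPM in WT (log2 1.25, edgeR adjusted p = 0.00986). Pcdhga5 had 8.29 and 6.94 CPM in GDel2, against 4.12, 4.21 and 3.31 CPM in WT (log2 0.98, adjusted p = 0.00445). Pcdhgb4 had 7.18 and 8.75 CPM in GDel2, against 4.05, 4.14 and 4.15 CPM in WT (log2 0.95, adjusted p = 0.00841). In each of these genes the lower GDel2 library was above the highest WT library.

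Pcdhga7 had 3.87 and 3.40 CPM in GDel2, against 1.40, 2.35 and 1.37 CPM in WT (log2 1.09, edgeR adjusted p = 0.0242). It was the 1 gamma gene whose expected counts were whole numbers in all 7 libraries, whereas the other 21 had fractional counts in 4 or more libraries. Whether reads that fit several genes were assigned whole to Pcdhga7 was not tested. Pcdhgb1 had 5.13 and 6.14 CPM in GDel2, against 3.61, 2.60 and 3.31 CPM in WT (log2 0.83, adjusted p = 0.0144). Pcdhgb2 had 4.18 and 3.69 CPM in GDel2, against 2.87, 2.10 and 1.94 CPM in WT (log2 0.78, adjusted p = 0.0333). Pcdhgb1, Pcdhgb2, Pcdhga4, Pcdhga7 and Pcdhgb4 lost their calls without GDel2 replicate 2, and Pcdhgb2 and Pcdhga7 also without GDel2 replicate 1. A lone GDel2 library remained in these fits, and a smaller share of all genes was called. Of the members that rose, some also missed the threshold without 1 WT library: Pcdhga7 without replicate 1 or 3, Pcdhgb2 without replicate 2 or 3 and Pcdhgb1 without replicate 2.

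**Figure D3:**
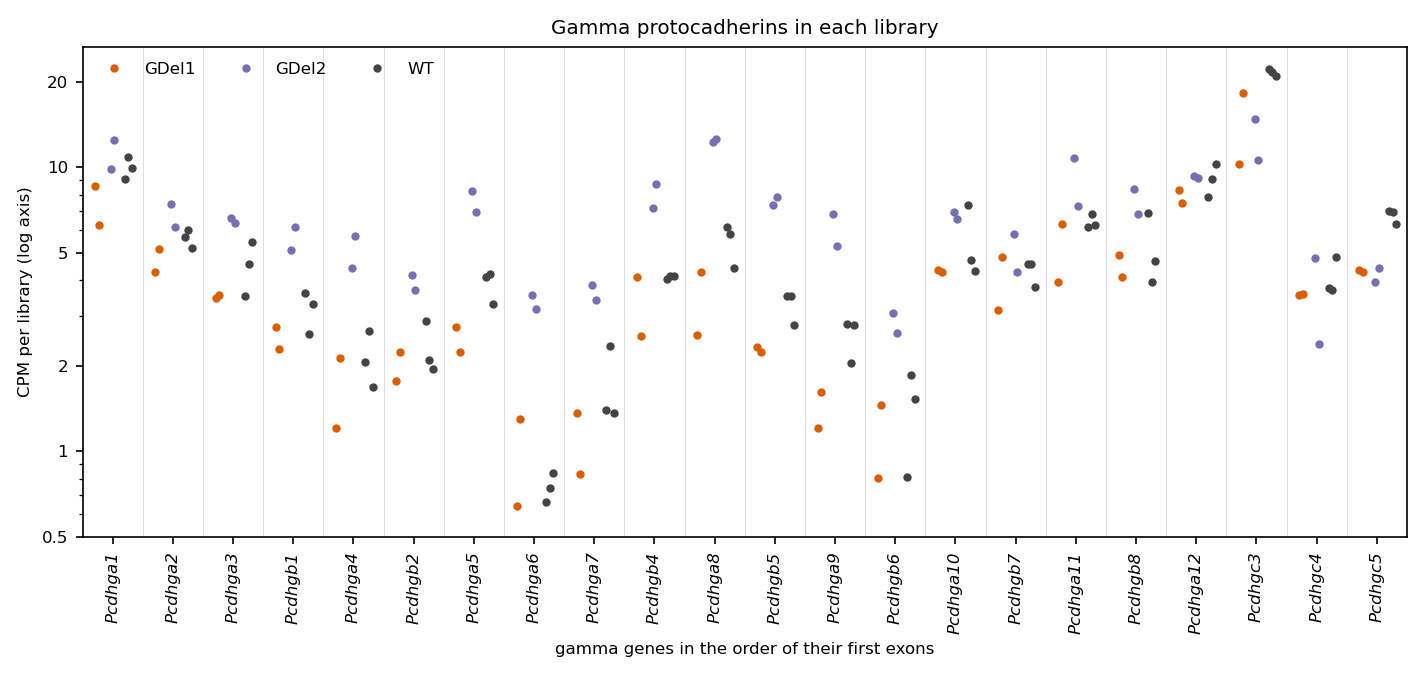
CPM (log axis) of each gamma gene in each library, in cluster order from Pcdhga1 to Pcdhgc5, with GDel1, GDel2 and WT side by side. From Pcdhgb1 to Pcdhga9 both GDel2 libraries lie above all WT libraries, as they do for Pcdhga2, Pcdhga3, Pcdhgb6 and Pcdhga11. For Pcdhgc3 and Pcdhgc5 the GDel1 and GDel2 libraries lie below all WT libraries.

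Towards the ends of the gamma cluster the type A and B genes missed the threshold, with positive values that were smallest for Pcdhga12 and Pcdhga1. Whether these values differ from those of the stretch was not tested. Pcdhga1 had 9.86 and 12.4 CPM in GDel2, against 9.13, 10.9 and 9.92 CPM in WT (log2 0.16, edgeR adjusted p = 0.530). Pcdhga12, the last type A gene, had 9.31 and 9.18 CPM in GDel2, against 7.88, 9.09 and 10.2 CPM in WT (log2 0.02, adjusted p = 0.923). For both genes the groups overlapped. Pcdhga11 had 10.8 and 7.30 CPM in GDel2, against 6.18, 6.87 and 6.25 CPM in WT (log2 0.49, adjusted p = 0.133). For Pcdhga11 both GDel2 libraries lay above all WT libraries. The last type B gene, Pcdhgb8, which RefSeq classes as a transcribed pseudogene, had 8.36 and 6.87 CPM in GDel2, against 6.92, 3.96 and 4.67 CPM in WT (log2 0.56, adjusted p = 0.104).

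Among the type C genes Pcdhgc3 and Pcdhgc5 fell in GDel2. Pcdhgc3, the most abundant gamma gene in WT, had 14.8 and 10.6 CPM in GDel2, against 22.2, 21.6 and 20.9 CPM in WT (log2 -0.77 ± 0.24, SE; edgeR adjusted p = 0.0385). Pcdhgc5 had 3.95 and 4.41 CPM in GDel2, against 6.99, 6.99 and 6.30 CPM in WT (log2 -0.69 ± 0.16, SE; adjusted p = 0.0104). Pcdhgc4, which mice need for the survival of cortical interneurons, had 4.81 and 2.39 CPM in GDel2, against 3.75, 3.71 and 4.83 CPM in WT, so that the groups overlapped (log2 -0.20 ± 0.29, SE; adjusted p = 0.631). Pcdhgc3 missed the threshold whenever a single library of GDel2 or WT was left out (adjusted p from 0.0547 to 0.243), and Pcdhgc5 without GDel2 replicate 1 (0.0605).

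In GDel1 against WT none of the 22 gamma genes passed the threshold in edgeR, where 0.376% of all genes were called. DESeq2 called none either, but it gave an adjusted p for only 5 of the 22, and it called 6.44% of all genes. At an unadjusted p under 0.05 there were 7 of the 22 gamma genes, against 24.5% of all genes. Log2 fold changes were negative for 21 of the 22 (18 without GDel1 replicate 1, 19 without WT replicate 1 and 22 without GDel1 replicate 2). Their median was -0.33, against 0.00 over all genes, but on the log2(TPM + 1) scale the gamma median of -0.28 lay above that of all genes at -0.30. The 2 GDel1 libraries lay below all 3 WT libraries for 9 of the 22 genes, 3 of them of type C, and for 22.6% of all genes tested. No gamma gene had both GDel1 libraries above WT, as 20.9% of all genes tested did.

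The gene nearest the threshold was Pcdhgc5, with 4.35 and 4.27 CPM in GDel1, against 6.99, 6.99 and 6.30 CPM in WT (log2 -0.65 ± 0.16, SE; edgeR adjusted p = 0.0640). Pcdhgc3 had 10.3 and 18.3 CPM in GDel1, against 22.2, 21.6 and 20.9 CPM in WT (log2 -0.58 ± 0.23, SE; adjusted p = 0.176). The GDel1 replicates of Pcdhgc3 differ from each other by more than the nearer one differs from WT. Pcdhgc4 had 3.54 and 3.59 CPM in GDel1, against 3.75, 3.71 and 4.83 CPM in WT (log2 -0.21, adjusted p = 0.694). Pcdhga9 had the most negative value of the cluster, with 1.21 and 1.61 CPM in GDel1, against 2.80, 2.04 and 2.78 CPM in WT (log2 -0.82 ± 0.27, SE; adjusted p = 0.109). Without GDel1 replicate 1 Pcdhga1 passed (log2 -0.68), and without GDel1 replicate 2 Pcdhgc3 and Pcdhga8 did (both at log2 -1.07). In these fits a lone GDel1 library remained, and a larger share of all genes was called than in the main fit.

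GDel2 and GDel1 share a genotype label and differed from each other in the gamma cluster. In GDel2 against GDel1 13 gamma genes rose and none fell, 59.1% of those tested, and 27.7% of all genes were called in this comparison, 14.8% as higher. At an unadjusted p under 0.05 there were 17 of the 22, none of them lower and none of type C, against 40.0% of all genes. DESeq2 called 10 members as higher and 0 as lower, and 21.8% of all genes. The genes that rose were the 12 neighbours from Pcdhga3 to Pcdhgb6 and, apart from them, Pcdhga11. Pcdhga9 differed most, with 6.87 and 5.28 CPM in GDel2, against 1.21 and 1.61 CPM in GDel1 (log2 2.07 ± 0.27, SE; edgeR adjusted p = 9.44e-04). Pcdhga8 had 12.3 and 12.6 CPM in GDel2, against 2.58 and 4.27 CPM in GDel1 (log2 1.83 ± 0.25, SE; adjusted p = 0.00115). In each of the 10 genes from Pcdhgb1 to Pcdhga9 both GDel2 libraries were above both GDel1 libraries, as in 18 of the 22 genes and in 29.9% of all genes tested. Pcdhga3, Pcdhgb2 and Pcdhgb6 lost their calls without GDel2 replicate 1 and also without GDel2 replicate 2. Pcdhga11 lost its call without GDel2 replicate 1, and Pcdhga4 without GDel2 replicate 2. A lone GDel2 library remained in these fits, and a smaller share of all genes was called. Pcdhga11 also missed the threshold without GDel1 replicate 1 or any one WT library, Pcdhgb6 without GDel1 replicate 1 or WT replicate 2 or 3, and Pcdhgb2 without GDel1 replicate 1 or WT replicate 2 (adjusted p from 0.0503 to 0.124 for these).

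Type C genes did not pass the threshold between GDel2 and GDel1. The log2 differences were -0.19 ± 0.26 for Pcdhgc3, 0.00 ± 0.32 for Pcdhgc4 and -0.04 ± 0.18 for Pcdhgc5 (SE; edgeR adjusted p from 0.619 to 0.994). Without GDel1 replicate 1 Pcdhgc3 passed, at -0.54, in a fit with a lone GDel1 library that called a larger share of all genes. At the near end of the cluster Pcdhga1 missed the threshold at 0.60 ± 0.20 (SE; adjusted p = 0.0536).

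**Figure D4:**
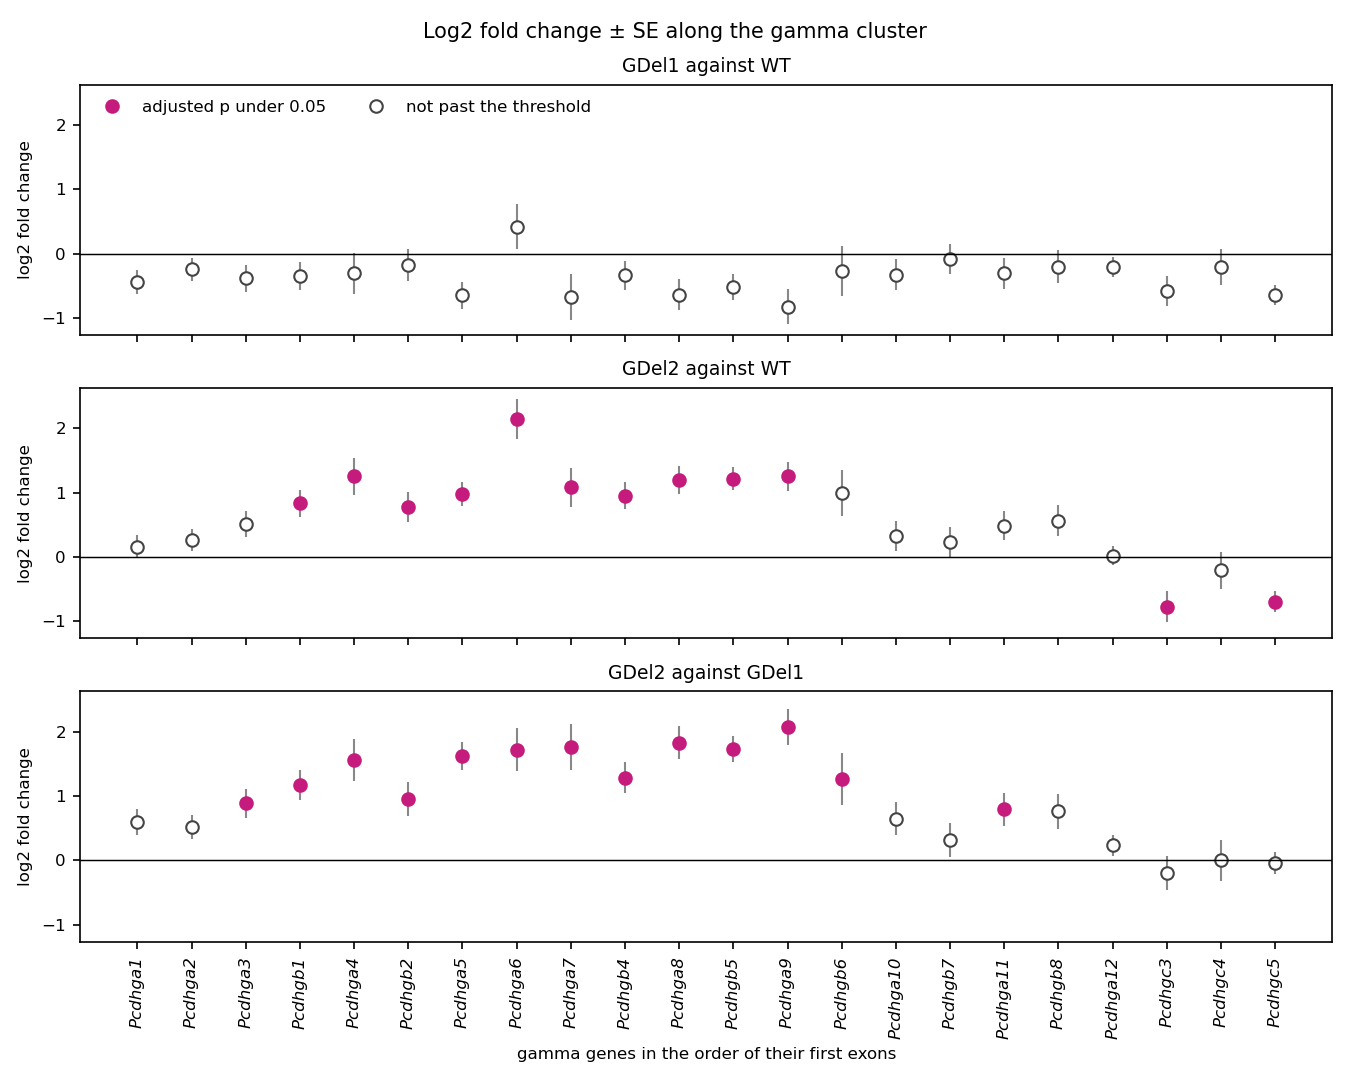
Log2 fold change ± SE of the 22 gamma genes in cluster order for GDel1 against WT, GDel2 against WT and GDel2 against GDel1, with filled points where the adjusted p is under 0.05. In GDel2 against WT the filled points above 0 are the 10 adjacent genes from Pcdhgb1 to Pcdhga9 and those below 0 are Pcdhgc3 and Pcdhgc5. In GDel1 against WT no point is filled.

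With GDel1 and GDel2 taken as 1 group of 4 against WT, where the difference between them counts as error, none of the 22 gamma genes passed in edgeR, as none of all genes did (0%). At an unadjusted p under 0.05 there were 3, against 19.0% of all genes, and DESeq2 called 1, Pcdhgc5, and 6.28% of all genes. DESeq2 gave no adjusted p there for Pcdhga4, Pcdhga6, Pcdhga7, Pcdhga9, Pcdhgb2 and Pcdhgb6. Pcdhgc3 and Pcdhgc5 were the 2 gamma genes for which all 4 deletion libraries lay below all 3 WT libraries, as was the case for 12.0% of all genes tested. Pcdhgc5 had 4.24 ± 0.206 CPM in the deletion group (SD, n = 4), against 6.76 ± 0.399 CPM in WT (SD, n = 3), a log2 fold change of -0.67 (edgeR adjusted p = 0.144). Pcdhgc3 had 13.5 ± 3.80 CPM in the deletion group (SD, n = 4), against 21.6 ± 0.640 CPM in WT (SD, n = 3), also a log2 fold change of -0.67 (adjusted p = 0.178).

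Of 23 tested genes beside the clusters 1 rose and 5 fell in GDel2 against WT (edgeR), 26.1%, against 33.1% of all genes. Their median log2 fold change was -0.10, against 0.01 over all genes. These genes were a chosen list. Of 29 tested genes within 500 kb of the clusters, protocadherins left out, 2 rose and 4 fell, 20.7%, also with a median of -0.10. In the chosen list Wdr55, a WD repeat gene before the alpha cluster, rose (log2 0.32, adjusted p = 0.0368). Ndfip1, an adaptor of ubiquitin ligases that is not among the genes within 500 kb, fell (log2 -0.67, adjusted p = 8.96e-04). Gnpda1, an enzyme of glucosamine metabolism, fell as well (log2 -0.42, adjusted p = 0.00554). Dnd1, an RNA-binding germ cell gene, fell (log2 -0.62, adjusted p = 0.0119), and so did Apbb3 (log2 -0.45, adjusted p = 0.0412). Taf7, a TFIID subunit gene that lies between beta and gamma and was named for that place, had 48.7 ± 6.22 CPM in GDel2 (SD, n = 2), against 40.6 ± 5.48 CPM in WT (SD, n = 3; log2 0.26, adjusted p = 0.372). Of 325 tested chromosome 18 genes outside the clusters, a set that includes genes beside them, 41 rose and 68 fell, 33.5%, with a median of -0.06. In GDel1 none of the 23 neighbours passed in edgeR, with 4 at an unadjusted p under 0.05, which 24.5% of all genes reached.

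Of 12 protocadherin genes outside the clusters 10 did not pass the filter on low counts. The 2 that passed, Pcdh1 and Pcdh19, went opposite ways in GDel2. Pcdh1 was not among the 23 genes counted beside the clusters, whose log2 fold changes against WT reached at most 0.47. Pcdh1 rose to 2.47 ± 0.419 CPM in GDel2 (SD, n = 2), against 0.837 ± 0.246 CPM in WT (SD, n = 3; log2 1.57, edgeR adjusted p = 0.00521). The X-linked gene Pcdh19 fell to 7.21 ± 1.19 CPM in GDel2 (SD, n = 2), against 27.3 ± 2.00 CPM in WT (SD, n = 3; log2 -1.92, adjusted p = 5.07e-05).

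Of 34 genes known to regulate the clusters, which include CTCF, cohesin, DNA methylation and heterochromatin genes, 7 rose and 5 fell in GDel2 against WT (edgeR), 35.3%, near the 33.1% of all genes. The DNA methyltransferase gene Dnmt3a rose (log2 0.91, adjusted p = 1.94e-04), while Dnmt3b, which methylates clustered protocadherin promoters in the mouse embryo, fell to 41.7 ± 0.617 CPM in GDel2 (SD, n = 2), against 88.0 ± 3.48 CPM in WT (SD, n = 3; log2 -1.08, adjusted p = 8.38e-05). Dnmt3l, a cofactor of these enzymes, fell (log2 -0.58, adjusted p = 0.00152), as did Nsd1, a histone H3K36 methyltransferase (log2 -0.45, adjusted p = 0.00758), and the maintenance methyltransferase Dnmt1 (log2 -0.50, adjusted p = 0.0228). Tet3 (log2 1.80, adjusted p = 3.05e-04) and Tet2 (log2 0.52, adjusted p = 0.00209), which oxidise methylated cytosine, rose, and so did Cbx3, a heterochromatin protein gene (log2 0.79, adjusted p = 8.61e-04). Ctcf itself, named after its value was seen, lay just past the threshold (log2 0.28, adjusted p = 0.0498), and Smchd1, a repressor of the clusters likewise named afterwards, rose (log2 0.45, adjusted p = 0.00899).

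In GDel1 none of the 34 regulators passed in edgeR, with 13 at an unadjusted p under 0.05, against 24.5% of all genes. The part of these genes in the gamma values was not tested.

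Among 16 genes that process protocadherins or carry their signal, 2 rose and 2 fell in GDel2 against WT (edgeR), 25.0%, against 33.1% of all genes. The kinase gene Fyn rose (log2 0.96, adjusted p = 0.0162), as did Marcks, an actin-regulating substrate of protein kinase C (log2 0.80, adjusted p = 0.00487). The kinase gene Ptk2b, whose product the protocadherin constant domains bind and inhibit, fell (log2 -1.75, adjusted p = 0.00150), and so did the gamma-secretase subunit gene Ncstn (log2 -0.42, adjusted p = 0.0228). In GDel1 none of the 16 passed in edgeR, with 6 at an unadjusted p under 0.05, against 24.5% of all genes.

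Markers of neural cells, in which clustered protocadherins are best known, also moved in GDel2, though not all the same way. Their summed level over 10 genes was 189 and 218 CPM in GDel1 and 234 and 246 CPM in GDel2, against 172 to 183 CPM in WT. Of 5 that passed the filter 3 rose in GDel2 against WT (edgeR): Tubb3 (log2 1.49, adjusted p = 1.22e-05), Sox1 (log2 1.26, adjusted p = 0.00282) and Nes (log2 0.60, adjusted p = 0.00843). Stmn2 and Map2 did not pass, and both had negative log2 fold changes, the lower at -0.34. Of 8 pluripotency genes 2 rose, Nanog and Zfp42, and 4 fell, Sox2, Esrrb, Tfcp2l1 and Dppa5a. Both lists are short, and over all genes 17.4% were called as higher and 15.6% as lower. Fibroblast feeder genes summed to 57.4 and 62.7 CPM in GDel1 and 37.5 and 28.8 CPM in GDel2, against 78.1 to 84.3 CPM in WT, with Col3a1 and Dcn at 0 in all libraries. Most of that sum was Fbln1, a matrix protein gene, which fell to 24.3 ± 5.08 CPM in GDel2 (SD, n = 2), against 74.0 ± 3.11 CPM in WT (SD, n = 3; log2 -1.61, edgeR adjusted p = 7.91e-05). Thy1, a surface glycoprotein gene of the same list, rose to 2.45 ± 0.115 CPM in GDel2 (SD, n = 2), against 0.926 ± 0.227 CPM in WT (SD, n = 3; log2 1.42, adjusted p = 0.0105). The part of these markers in the gamma values was not tested.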

How the data were processed

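Values came from 7 gene tables of the authors' RSEM output, 1 per RNA-seq library; the other 59 of 66 samples were not analysed here. STAR, RSEM and the mm10 build are named per the submitters' processing notes, without versions. The deposited expected counts are estimates per gene that are not scaled for depth, the authors' tool dividing reads that fit several genes. The deposited TPM values were scaled by the authors per effective length and to a fixed sum. The deposited FPKM values were not used, nor were the deposited lengths in bases. For the annotation release and counting strand, nothing is stated (not given in the sources used). Symbols were found for 55141 of 55487 identifiers, and positions for all 58 members.

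Expected counts were rounded for the tests; sums used them unrounded. Genes were kept by filterByExpr over the 3 groups (minimum count 10, minimum total 15), leaving 15421. Tests used R 4.3.3 and edgeR 4.0.16 (TMM, robust quasi-likelihood, Benjamini-Hochberg over all genes tested, 2-sided), with 1 fit of 3 groups and 1 fit of the deletion group of 4 against WT. An adjusted p with no tool named is from edgeR. The fits were checked on simulated data. Alternatives used DESeq2 1.42.0, limma 3.58.1, other filters, scaling and left-out libraries.

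Named were all members past the threshold, the 5 highest of each cluster, C-type, first and last members, members at 0, and from related lists at most 4 called genes per direction, with exceptions stated. Members and lists were chosen with earlier results of these data known. Cluster sums and shares have no test.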

Additional observations from a re-analysis of the deposited data

Results flagged for a closer look

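GDel2 and GDel1 carry the same genotype label, and 13 gamma genes differed between them by the test of the difference itself (edgeR, adjusted p under 0.05, positive values higher in GDel2; 27.7% of all genes were called). Within the stretch at the start of the cluster the log2 fold changes were 0.89 for Pcdhga3, 1.18 for Pcdhgb1, 1.56 for Pcdhga4 and 0.95 for Pcdhgb2. In its middle they were 1.62 for Pcdhga5, 1.72 for Pcdhga6, 1.76 for Pcdhga7 and 1.29 for Pcdhgb4. Towards its end they were 1.83 for Pcdhga8, 1.73 for Pcdhgb5, 2.07 for Pcdhga9 and 1.27 for Pcdhgb6. Pcdhga11, which stands apart from the stretch, had 0.80.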

How the results depend on the processing

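Under 15 alternative fits no member's value that passed the threshold, as reported or in the alternative, changed its sign. Of 1003 values of single members under these fits, 869 kept their sign and their side of the threshold, 68 lost a call, 35 gained one and 31, none of them called, changed sign. For GDel1 against WT, Pcdhga6 was -0.00918 with limma on log2(TPM + 0.1). For GDel2 against WT, Pcdhga12 was -0.0189 with library totals without TMM, -0.00467 without a filter, -0.0130 with limma on log2(TPM + 1) and -0.0220 on log2(TPM + 0.1). For GDel2 against GDel1, Pcdhgc4 was -0.0338 without a filter and -0.0395 with the replicate block, while limma on log2(TPM + 1) and log2(TPM + 0.1) gave 0.0755 and 0.20 for Pcdhgc5 and 0.21 and 0.31 for Pcdhgc3. When 1 library, or a GDel1 and a GDel2 library, was left out, these log2 values ran across 0. For GDel1 against WT they ran from -0.36 to 0.0035 for Pcdhgb2, -0.36 to 0.0514 for Pcdhgb8, -0.81 to 0.0568 for Pcdhgb6, -0.81 to 0.0298 for Pcdhga4, -0.23 to 0.80 for Pcdhga6 and -0.45 to 0.20 for Pcdhgb7. For GDel2 against WT they ran from -0.79 to 0.23 for Pcdhgc4, -0.0656 to 0.12 for Pcdhga12, -0.0211 to 0.31 for Pcdhga1 and -0.0181 to 0.45 for Pcdhgb7. For GDel2 against GDel1 they ran from -0.59 to 0.43 for Pcdhgc4, -0.13 to 0.0202 for Pcdhgc5 and -0.54 to 0.29 for Pcdhgc3. With the deletion groups taken as 1, 11 of the 20 members not named there changed sign in some fit, none being called in any. For GDel2 against WT the 10 members that rose became 4 with limma on log2(TPM + 0.1) and 6 with the replicate block, and ranged from 5 to 11 when 1 library was left out. The 2 that fell became 1 with DESeq2, with library totals without TMM or with limma on log2(TPM + 1), 0 with limma on log2(TPM + 0.1) or with the replicate block, and 0 to 2 when 1 library was left out. Replicate numbers were not taken as pairs in the main fit. Correlations of same-numbered deviations ran from -0.28 to 0.11. With 2 libraries in each deletion group the deviations mirror each other, so these values cannot settle whether libraries were paired. The block uses replicates 1 and 2 only. For GDel2 against WT it called 15.2% of all genes, against 22.9% for the same libraries without the block. For GDel1 against WT the 0 that fell became 2 without a filter (Pcdhgc3, Pcdhgc5), where 8.58% of all genes were called. They became 3 with limma on log2(TPM + 1), which called 21.1% of all genes, and 6 on log2(TPM + 0.1), which called 22.9%. The number stayed at 0 when 1 WT library was left out. The 0 that rose became 1 without a filter (Pcdha12). Without GDel1 replicate 1 and GDel2 replicate 2, the libraries with the most mitochondrial transcripts, 3 fell in GDel1, and 12 rose and 2 fell in GDel2, a lone library being taken to vary like the other groups. Calls among all genes also went up then, to 26.3% for GDel1. For GDel2 against GDel1 the 13 that rose ranged from 10 to 14 when 1 WT library was left out, with 21.6% to 22.4% of all genes called. None fell in those fits. The deletion group had 1 lower member with DESeq2. The GDel1 median of -0.33 was -0.41 without TMM, -0.28 with log2(TPM + 1) and -0.68 with log2(TPM + 0.1), where the median of all genes was -0.07, -0.30 and -0.44, so that under log2(TPM + 1) the gamma median lay above that of all genes. The GDel2 median of 0.67 was 0.22 with log2(TPM + 1) and 0.53 with log2(TPM + 0.1). With 1 library left out the medians were -0.40 to -0.33 for GDel1 and 0.58 to 0.78 for GDel2. By TPM the summed ratio of GDel1 to WT was 0.789 for alpha, against 1.20 by CPM, and 0.557 for gamma, against 0.757 by CPM. The cause of these shifts was not tested. Depth limits alpha and beta, where no member passed the filter.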
